A study of Mus musculus with 9 samples.

Results

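Neural tube dorsoventral patterning factors are transcription factors that divide the ventricular zone of the developing spinal cord and hindbrain into progenitor domains, stacked from the roof plate to the floor plate. Their levels were read from all array probes that carry the symbol of *Pax3*, *Pax7*, *Olig3*, *Pax6*, *Dbx1*, *Nkx6-1*, *Olig2*, *Nkx2-2*, *Rfx4* or *Fez1*. These 10 symbols had 14 probes among the 25697 probes and 18120 symbols of the deposited table. The genes were chosen by symbol while group intensities from these same 9 arrays were already known. Their levels, differences and counts of calls are therefore a description of the arrays and carry no test of their own.

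The arrays held RNA of CD-1 mouse embryos at E10.5 (embryonic day), all without any genetic change or treatment named in the labels. One group was otic vesicle (OV), the epithelial sac that forms the inner ear, pooled by 20 per sample. The second was periotic tissue, the mesenchyme and hindbrain next to the vesicle, and the third was the embryo without its otic region. In other passages the authors describe the neural part of the periotic pool as dorsal neural tissue. How much ventral neural tube it held was not stated. Each group had 3 pools taken from 3 litters, with 1 array per pool.

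Dorsal identity in the neural tube is set by BMP and Wnt signals from the roof plate, and ventral identity by Sonic hedgehog from the notochord and floor plate. Each domain expresses its own set of homeodomain and basic helix-loop-helix factors, many of which repress the factors of the neighbouring domain. *Pax3*, *Pax7* and *Olig3* mark dorsal progenitors, *Pax6* and *Dbx1* intermediate ones, and *Nkx6-1*, *Olig2* and *Nkx2-2* ventral ones. *Rfx4* is active along most of the dorsoventral axis. *Fez1* is annotated in the deposited table as fasciculation and elongation protein zeta 1, a kinesin adaptor of growing axons by its known role, and is not a dorsoventral patterning factor. It is kept here as a neuronal gene beside the others.

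All 10 symbols were found in a RefSeq gene table, and promoters of 9 of them in a RefSeq promoter table on GRCm38.p6. The 250 bases upstream of an annotated start are shown for 1 measured gene of each domain, so that a reader can see what lies before these genes. Capitals mark CANNTG (the E-box that basic helix-loop-helix factors bind), ACAAAG (a SOX motif) and TATAAA (the TATA box), each read on both strands. TATAAA was added after the sequences had been read.
Olig3, dorsal, chr10:19356289-19356538, plus strand: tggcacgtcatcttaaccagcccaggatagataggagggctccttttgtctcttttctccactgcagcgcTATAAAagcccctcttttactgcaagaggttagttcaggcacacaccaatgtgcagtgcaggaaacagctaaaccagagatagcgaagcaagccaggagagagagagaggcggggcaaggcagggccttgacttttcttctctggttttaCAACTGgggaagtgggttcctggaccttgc
Dbx1, intermediate, chr7:49636836-49637085, minus strand: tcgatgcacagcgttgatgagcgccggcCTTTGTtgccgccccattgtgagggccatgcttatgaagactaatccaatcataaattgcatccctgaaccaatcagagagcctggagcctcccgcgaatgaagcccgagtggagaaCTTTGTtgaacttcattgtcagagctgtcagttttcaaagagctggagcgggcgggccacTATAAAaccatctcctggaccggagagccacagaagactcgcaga
Nkx2-2, ventral, chr2:147186403-147186652, minus strand: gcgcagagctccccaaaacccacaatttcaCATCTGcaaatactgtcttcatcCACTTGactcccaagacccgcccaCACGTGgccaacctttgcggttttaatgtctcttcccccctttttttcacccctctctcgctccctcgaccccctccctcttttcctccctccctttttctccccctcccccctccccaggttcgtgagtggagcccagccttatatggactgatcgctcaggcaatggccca

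The *Olig3* stretch held 1 E-box and 1 TATA box, that of *Dbx1* held 2 SOX motifs and 1 TATA box, and that of *Nkx2-2* held 3 E-boxes. Over all 32851 stretches of this length in the table, 66.2% held an E-box, 16.5% the SOX motif and 12.4% the TATA box. None of the 3 held TAATTA, a homeodomain core found in 4.84% of all stretches, or GACCACCCA, a GLI motif found in 0.225%. The 250 bases before *Nkx6-1* and before the upstream start of *Rfx4* held none of these 5 motifs. A match of letters is a description of the sequence and was not tied to any level below.

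Values are log2 intensities after quantile normalization, with SD over n = 3 arrays, and can be compared between tissues for 1 probe but not between probes. A detection p under 0.01 counted as above background, where this p ranks its signal against that array's negative controls. Per array, between 43.9% and 47.3% of all probes were above background. The labels were checked against marker genes. Of 13 probes for 8 otic genes, 11 were higher in OV than in either other tissue, and 4 of 8 somite and muscle probes (among them *Meox1*, *Meox2* and *Tcf15*) were higher in embryo-minus-otic tissue than elsewhere (limma, adjusted p under 0.05). None of 6 eye probes was above background on all arrays of a group. Of the probes on a pancreas list, *Insm1* and *Neurog3*, which developing neurons also express, were higher in periotic tissue than in embryo-minus-otic tissue. *Insm1* was also 2.69-fold higher in OV than in embryo-minus-otic tissue (limma, q = 5.07e-08). Among 4 neural crest probes, 1, for *Ets1*, was lower in OV than in both other tissues. In pooled tissue, fewer cells of a type and less RNA per cell cannot be told apart.

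Of the 14 probes, 7 stayed near background. Those for *Pax3*, *Pax7*, *Pax6* and *Olig2*, the second *Nkx2-2* probe and the dimmer *Rfx4* probes had log2 intensities between 5.52 and 6.16 on every array. The 1 reading above background among them was *Pax3* on periotic replicate 3.

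**Figure D1:**
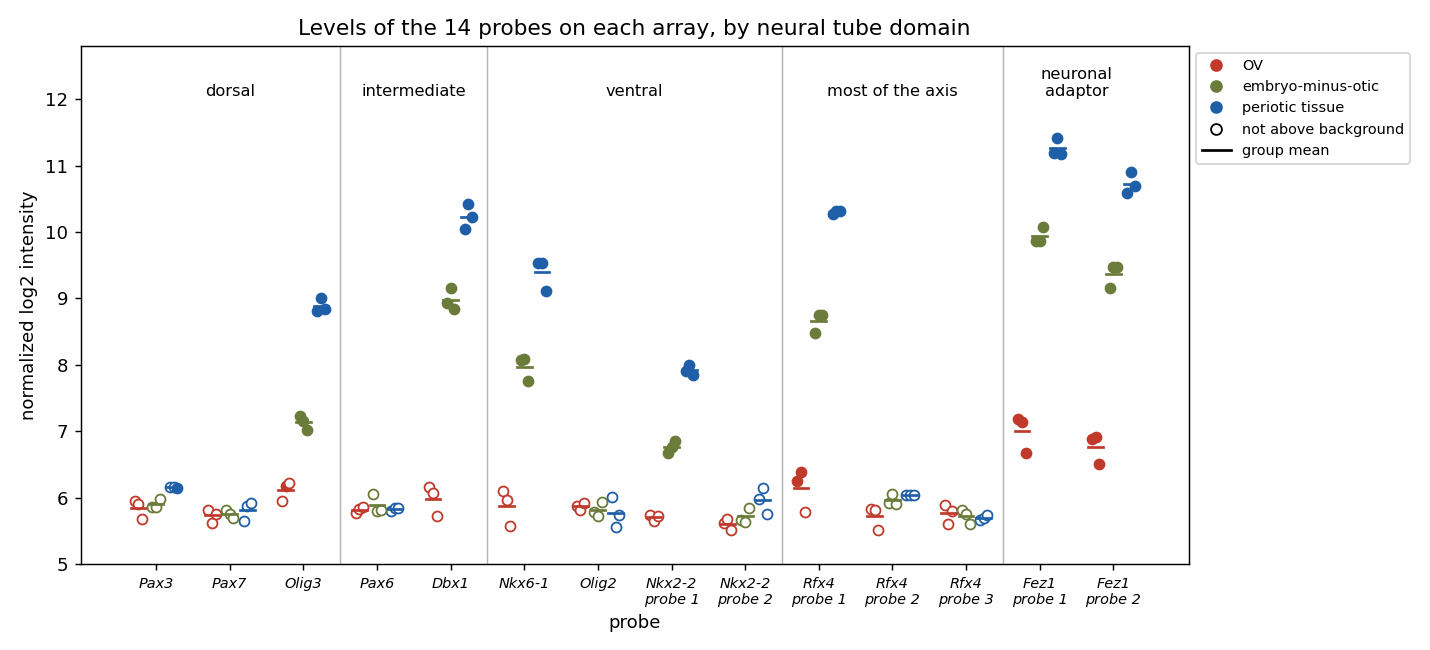
Normalized log2 intensity (vertical axis) of each of the 14 probes (horizontal axis) on each of the 9 arrays, with 1 point per array, bars for group means, and open points for arrays where the probe was not above background. For 7 probes periotic tissue lies highest, embryo-minus-otic tissue between and OV lowest, and the other 7 probes stay between 5.52 and 6.16.

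*Olig3* was the measured dorsal gene. It encodes a basic helix-loop-helix factor of the progenitors nearest the roof plate. Its log2 intensity was 8.81, 9.003 and 8.84 on the 3 periotic arrays, 7.23, 7.16 and 7.02 on the embryo-minus-otic arrays, and 5.96, 6.18 and 6.22 on the OV arrays. The 3 tissues did not overlap, with periotic tissue highest and OV lowest. *Olig3* was above background on all non-otic arrays and on OV replicate 2. Periotic tissue exceeded embryo-minus-otic tissue 3.35-fold (log2 1.74, standard error 0.099), the widest such gap among the 14 probes, and exceeded OV 6.80-fold.

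*Pax3* and *Pax7* are paired box factors of the dorsal neural tube, neural crest and dermomyotome. The *Pax3* probe had 6.16 ± 0.0064 in periotic tissue, 5.90 ± 0.071 in embryo-minus-otic tissue and 5.85 ± 0.15 in OV. It passed the threshold between OV and periotic tissue, by 1.24-fold, and lost it when OV replicate 2, OV replicate 3 or any of the periotic replicates was left out, with log2 differences from -0.34 to -0.23 there. *Pax7* had 5.81 ± 0.14, 5.76 ± 0.061 and 5.74 ± 0.10 in the same order, and its arrays overlapped between all tissues. No statement on either gene beyond this low signal is possible from these probes.

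*Dbx1* was the measured intermediate gene. It encodes a homeodomain factor of the progenitors midway between roof plate and floor plate. On the deposited linear scale, before normalization, its signal was 969, 1469 and 1381 on the periotic arrays, 457, 678 and 382 on the embryo-minus-otic arrays, and 74.1, 62.8 and 50.6 on the OV arrays. The normalized log2 values were 10.04, 10.42 and 10.23 in periotic tissue, 8.94, 9.15 and 8.85 in embryo-minus-otic tissue, and 6.16, 6.07 and 5.73 in OV. Again no array of one tissue reached those of another. No OV array was above background, so periotic tissue was at least 16.3-fold and embryo-minus-otic tissue at least 6.86-fold above OV. Between the non-otic tissues the gap was 2.38-fold (log2 1.25, standard error 0.13).

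*Pax6*, a paired box factor of the intermediate neural tube and the eye, had 5.83 ± 0.026 in periotic tissue, 5.89 ± 0.15 in embryo-minus-otic tissue and 5.82 ± 0.048 in OV. Its arrays overlapped between all tissues, and no array was above background. As for *Pax3* and *Pax7*, this probe allows no statement on the gene beyond the low signal.

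The ventral domains were represented by *Nkx6-1* and *Nkx2-2*. *Nkx6-1*, a homeodomain factor shared by several ventral progenitor domains, had 9.53, 9.54 and 9.12 on the periotic arrays, 8.07, 8.09 and 7.76 on the embryo-minus-otic arrays, and 6.10, 5.97 and 5.58 on the OV arrays. The order of the tissues was the same as for *Olig3* and *Dbx1*, without overlap. Periotic tissue was at least 9.16-fold and embryo-minus-otic tissue at least 3.42-fold above OV, where no array was above background. Periotic tissue exceeded embryo-minus-otic tissue 2.68-fold (log2 1.42, standard error 0.14).

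*Nkx2-2*, a homeodomain factor of the progenitors beside the floor plate, had 2 probes that disagreed in brightness. The first read 7.91, 8.005 and 7.85 on the periotic arrays, 6.67, 6.77 and 6.85 on the embryo-minus-otic arrays, and 5.75, 5.65 and 5.72 on the OV arrays. Periotic tissue was again highest and OV lowest, with no overlap. Periotic tissue was at least 3.30-fold and embryo-minus-otic tissue at least 1.48-fold above OV, and the non-otic tissues differed 2.23-fold (log2 1.16, standard error 0.086). The second probe, which the deposited table places on chromosome 2, had 5.96 ± 0.20 in periotic tissue, 5.72 ± 0.12 in embryo-minus-otic tissue and 5.61 ± 0.080 in OV, with no array above background. It passed the threshold between OV and periotic tissue, by 1.28-fold, but not when any of the OV replicates or periotic replicate 1 or 2 was left out, with log2 differences from -0.39 to -0.26 there.

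*Olig2*, the basic helix-loop-helix factor of motor neuron progenitors, had 5.77 ± 0.23 in periotic tissue, 5.82 ± 0.11 in embryo-minus-otic tissue and 5.87 ± 0.057 in OV, and no array was above background. Its arrays overlapped between all tissues. This probe likewise allows no statement on *Olig2* beyond the low signal.

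*Rfx4* encodes a winged-helix factor of neural progenitors along most of the axis, known for its part in cilium formation. Its brightest probe read 10.27, 10.31 and 10.32 on the periotic arrays, 8.47, 8.75 and 8.75 on the embryo-minus-otic arrays, and 6.25, 6.39 and 5.79 on the OV arrays. The tissues did not overlap, and the periotic arrays had an SD of 0.027. Of the OV arrays, replicates 1 and 2 were above background and replicate 3 was not. Periotic tissue exceeded embryo-minus-otic tissue 3.13-fold (log2 1.64, standard error 0.13) and OV 17.9-fold. The other *Rfx4* probes, of which 1 shares its target record with the brightest, were not above background on any array, with periotic means of 6.05 and 5.70.

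Both *Fez1* probes were above background on all 9 arrays, unlike every other probe in the set. The brighter read 11.19, 11.42 and 11.17 on the periotic arrays, 9.87, 9.87 and 10.08 on the embryo-minus-otic arrays, and 7.18, 7.14 and 6.68 on the OV arrays. The dimmer had means of 10.73 ± 0.16, 9.37 ± 0.18 and 6.77 ± 0.22 in the same order. The fold Δ of periotic tissue over embryo-minus-otic tissue was 2.49 and 2.56 with the 2 probes, and over OV it was 19.1 and 15.5. The order of tissues for this axonal adaptor was thus that of the measured patterning factors.

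**Figure D2:**
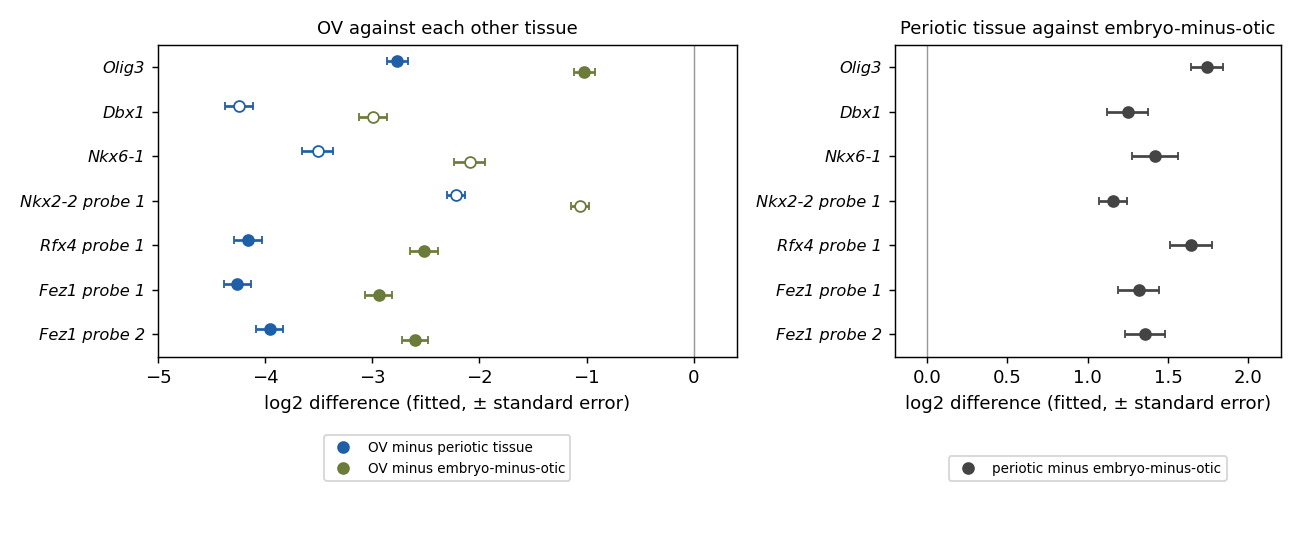
Fitted log2 differences (horizontal axis, bars are standard errors of the fit over 9 arrays) for the 7 measured probes, with OV against each other tissue on the left and periotic tissue against embryo-minus-otic tissue on the right. Open points mark *Dbx1*, *Nkx6-1* and the first *Nkx2-2* probe, where no OV array was above background and the fitted value is no bound, and on the right all 7 differences lie between 1.16 and 1.74.

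In limma fits over all 25697 probes, 9 of the 14 probes were called lower in OV than in periotic tissue and 7 lower in OV than in embryo-minus-otic tissue (adjusted p under 0.05), against 5.15% and 5.51% of all probes. None was called higher in OV, against 5.07% of all probes in the first comparison and 5.89% in the second. Between the non-otic tissues, 7 of the 14 were called higher in periotic tissue, against 2.86% of all probes, and none was called higher in embryo-minus-otic tissue, against 2.95%. Under median normalization the share of all calls that favour the first tissue moved from 51.6% to 68.7% for OV against embryo-minus-otic tissue and from 49.3% to 72.0% for periotic tissue against it. For 7 of the 14 probes every periotic array was above every embryo-minus-otic array and each of these above every OV array, an order found for 1.40% of all probes and for 20 of 69 probes of the neural lists described further on. Because the genes were chosen with these values known, nothing is read from these counts.

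Set side by side, the non-otic gap was 3.35-fold for dorsal *Olig3*, 2.38-fold for intermediate *Dbx1*, 2.68-fold and 2.23-fold for ventral *Nkx6-1* and *Nkx2-2*, and 3.13-fold for *Rfx4*. With 1 or 2 measured genes per domain, no order of the domains is drawn. The OV comparisons depended on the treatment of background. With limma's neqc, which subtracts an estimated background before the log, periotic tissue exceeded OV 38.3-fold rather than 17.9-fold for *Rfx4* and 14.4-fold rather than 6.80-fold for *Olig3*, which was above background on 1 OV array. For the *Fez1* probes it was 27.6-fold and 24.1-fold rather than 19.1-fold and 15.5-fold. No such value is given for *Dbx1*, *Nkx6-1* and *Nkx2-2*, which had only bounds in OV. The gaps between the non-otic tissues ranged from 2.50-fold to 4.28-fold with neqc.

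Among the probes above background on an OV array, the brightest *Rfx4* probe and both *Fez1* probes were lowest on OV replicate 3, and *Olig3* was highest there. Without that array, the log2 difference of OV minus periotic tissue was -3.98 for *Rfx4*, against -4.16 with it.

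Over the 9 arrays, the profile of each measured gene was compared with those of 11849 probes above background throughout at least 1 tissue. Nearest to *Olig3* by Pearson's r were *Nes* (0.994), *Upp1* (0.993) and *Msx3* (0.993), and nearest to *Dbx1* were *Cxxc4* (0.998), *Fez1* (0.997) and *Ckb* (0.996). For *Nkx6-1* they were *Pea15* (0.996), *Fzd10* (0.995) and *Hes5* (0.994). For the first *Nkx2-2* probe they were *Ceecam1* (0.998), *Ednrb* (0.998) and *LOC381813* (0.996). *Rfx4* was nearest to *Fez1* (0.997), *Mapk11* (0.996) and *Pea15* (0.995), and *Fez1* to *Dbx1* (0.997), *Cxxc4* (0.994) and *Mtap1b* (0.994). Among the 7 measured probes r ranged from 0.921, between *Olig3* and *Dbx1*, to 0.998, between the *Fez1* probes. These values describe 9 points in 3 tissue clusters, which share tissue and array, and they carry no p.

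Other genes of the same domains were read from lists drawn up from general knowledge of the neural tube, without the 10 symbols above. These and the general neural lists further on were also written with earlier results of these data known. Their counts and q values therefore describe the arrays and are no independent support for the pattern of the 10 genes. The dorsal list had 16 of 17 genes on the array with 19 probes, the intermediate list 5 of 7 with 6 probes and the ventral list 13 of 14 with 18 probes. Of these, 13, 3 and 7 probes were above background throughout at least 1 tissue. Beside the list counts below, 5.15% of all probes were called lower in OV than in periotic tissue and 5.07% higher. Against embryo-minus-otic tissue, 5.51% of all probes were lower in OV and 5.89% higher. Between the non-otic tissues, 2.86% were higher in periotic tissue and 2.95% lower.

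In the dorsal list, 9 of 19 probes were lower in OV than in periotic tissue and 3 were higher, with a median log2 difference of -0.14 against 0.00 over all probes (limma, adjusted p under 0.05). *Wnt3a*, a roof plate signal, was 10.2-fold lower in OV (q = 3.05e-10, the adjusted p of limma). It was above background on only 2 OV arrays. *Zic1*, a zinc finger factor of the dorsal tube, was 4.72-fold lower (limma, q = 5.52e-07), and *Msx3*, a dorsal homeobox gene, at least 3.26-fold lower (limma, q = 1.64e-10). The 3 higher probes were all for *Lmx1a*, a roof plate factor that is also on the otic list, the brightest by 11.001-fold (limma, q = 2.61e-12).

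Against embryo-minus-otic tissue, 6 dorsal probes were lower in OV and 3, again for *Lmx1a*, were higher, with a median of -0.25. *Wnt3a* was 3.82-fold lower (limma, q = 1.82e-07), *Zic1* 3.24-fold lower (limma, q = 1.25e-05) and *Lhx2*, a LIM factor of dorsal interneurons and forebrain, at least 1.51-fold lower (limma, q = 6.84e-06).

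Between the non-otic tissues, 8 dorsal probes were higher in periotic tissue and 1 was lower, with a median of 0.34 against 0.0066 over all probes. *Wnt3a* rose 2.67-fold (limma, q = 1.37e-05), from 8.63, 8.32 and 8.50 on the embryo-minus-otic arrays to 9.93, 9.85 and 9.91 on the periotic arrays. *Msx3* rose 2.47-fold (limma, q = 1.80e-07) and *Gsh1*, now *Gsx1*, a homeobox gene of dorsal interneuron progenitors, at least 2.05-fold (limma, q = 6.56e-05). The lower probe was for *Lhx2*, by at least 1.53-fold (limma, q = 4.49e-05).

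The intermediate list held few measured probes. *Irx5*, an Iroquois homeobox gene, was 1.41-fold lower in OV than in periotic tissue (limma, q = 0.0193), the 1 call among 6 probes in that comparison. Against embryo-minus-otic tissue *Irx3*, a second Iroquois gene, was 1.73-fold higher in OV (limma, q = 3.78e-04). *En1* was at least 1.03-fold lower in OV in that comparison (limma, q = 0.0188). It is a homeobox gene of ventral interneurons and the midbrain, so its difference is not a reading of intermediate progenitors alone. *Irx5* and *Irx3* were 1.79-fold and 1.47-fold higher in periotic tissue than in embryo-minus-otic tissue (limma, q = 5.19e-04 and 0.0131). The median differences of the list were -0.039, -0.022 and 0.12 in these 3 comparisons.

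In the ventral list, 6 of 18 probes were lower in OV than in periotic tissue and 1 was higher, with a median of -0.091. *Shh*, the floor plate signal, was at least 3.92-fold lower in OV by its brighter probe (limma, q = 1.14e-08), *Lhx4*, a LIM factor of motor neurons and ventral interneurons, at least 2.28-fold (limma, q = 4.28e-07) and *Nkx2-9*, a neighbour of *Nkx2-2* in expression, at least 1.54-fold (limma, q = 7.79e-07). Against embryo-minus-otic tissue 5 were lower and 1 was higher, with a median of -0.070. There *Shh* was at least 4.16-fold lower in OV (limma, q = 8.68e-09) and *Lhx4* at least 1.69-fold lower (limma, q = 1.35e-05).

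*Olig1*, the close relative of *Olig2*, was the ventral gene that ran the other way. Its log2 intensity was 8.14, 7.501 and 8.25 on the OV arrays, 7.28, 7.54 and 7.31 on the embryo-minus-otic arrays and 6.69, 6.46 and 6.69 on the periotic arrays. OV exceeded periotic tissue 2.55-fold without overlap (limma, q = 1.58e-05) and embryo-minus-otic tissue 1.501-fold with overlapping arrays (limma, q = 0.0214). Periotic tissue was 1.70-fold below embryo-minus-otic tissue (limma, q = 0.0063).

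Between the non-otic tissues, the ventral probes called higher in periotic tissue were the 2 for *Nkx2-9*, at least 1.35-fold and at least 1.52-fold (limma, q = 5.09e-05 and 7.46e-05), and the median of the list was -0.019. *Shh* was at 8.17 in periotic tissue and 8.26 in embryo-minus-otic tissue, a log2 difference of -0.087 with a standard error of 0.14 (limma, q = 0.859). A periotic gap like that of *Nkx6-1* and *Nkx2-2* was thus called for *Nkx2-9* and not for *Shh*. The embryo-minus-otic pool held many tissues, so its *Shh* level is not that of the neural tube alone. *Lhx4* was 1.35-fold higher in periotic tissue without overlap, short of the threshold (limma, q = 0.0824). *Isl1*, a LIM factor of motor neurons that many other tissues express, was 9.63 in periotic tissue and 9.92 in embryo-minus-otic tissue (limma, q = 0.490).

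**Figure D3:**
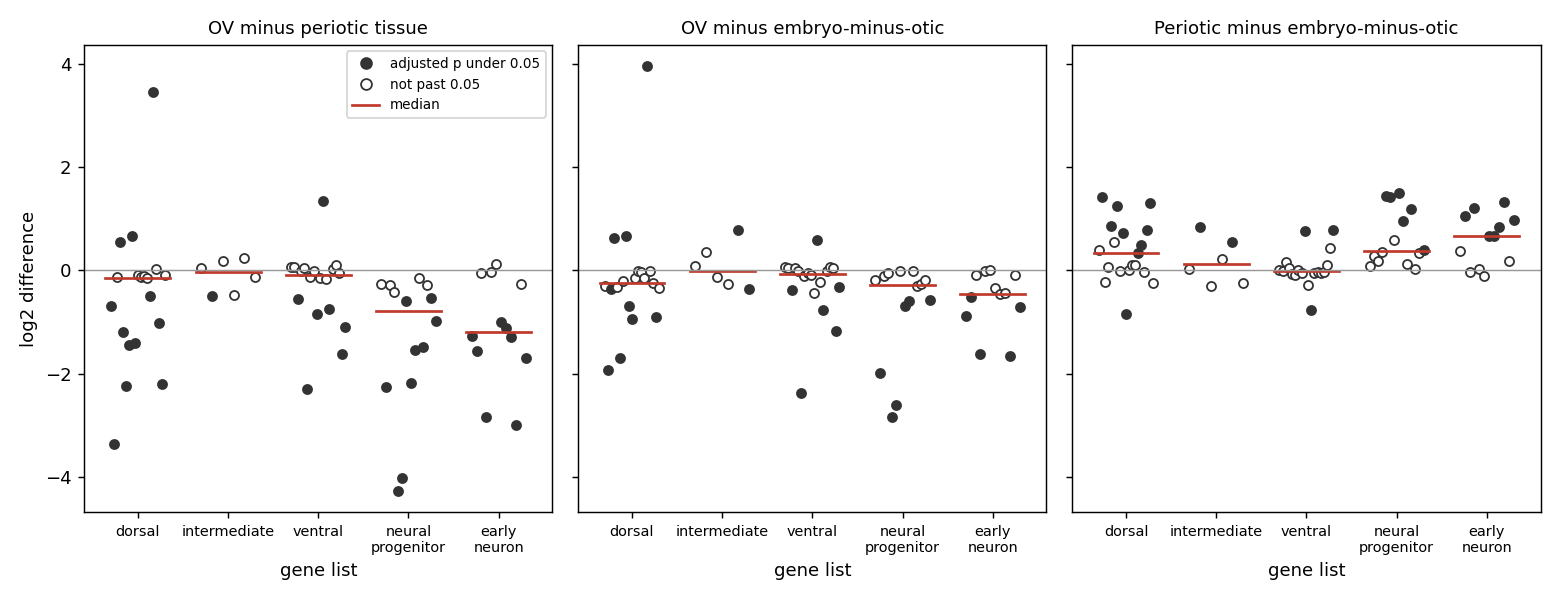
Log2 differences (vertical axis) of every probe of the 5 lists of neural genes outside the 10 symbols (horizontal axis), in 3 comparisons, with filled points at a limma adjusted p under 0.05 and red bars for list medians. The medians of the neural progenitor and early neuron lists were -0.79 and -1.19 where OV is set against periotic tissue, and 0.38 and 0.66 where periotic tissue is set against embryo-minus-otic tissue.

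Lists of general neural genes were read in the same way. Of 14 neural progenitor probes, 9 were lower in OV than in periotic tissue, 6 were lower in OV than in embryo-minus-otic tissue and 6 were higher in periotic tissue than in that group, with none in the opposite direction (limma, adjusted p under 0.05). *Hes5*, a Notch target of neural progenitors, was 19.3-fold and 16.2-fold lower in OV than in periotic tissue by its probes (limma, q = 5.70e-11 and 2.63e-11), and 2.70-fold and 2.66-fold higher in periotic tissue than in embryo-minus-otic tissue. In OV these *Hes5* probes were above background on only 2 arrays and 1 array. *Nes*, an intermediate filament gene of progenitors, was 4.52-fold lower in OV than in periotic tissue by its brighter probe (limma, q = 1.43e-09) and 2.82-fold higher in periotic tissue than in embryo-minus-otic tissue (limma, q = 3.36e-07). Probes for the other genes of the list had smaller differences between the non-otic tissues, with log2 values from 0.027 for a *Neurog2* probe to 0.95 for *Fabp7*, and the median of the list was 0.38. Those for *Sox1*, *Sox2*, *Sox3*, *Neurog2*, *Pou3f2* and *Pou3f3* did not pass the threshold there.

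Of 12 early neuron probes, 8 were lower in OV than in periotic tissue, 5 were lower in OV than in embryo-minus-otic tissue and 7 were higher in periotic tissue than in that group, with none in the opposite direction. *Nefm* was 7.96-fold lower in OV than in periotic tissue (limma, q = 1.19e-08) and *Stmn2* 7.11-fold lower (limma, q = 6.85e-07), and they were 2.51-fold and 2.32-fold higher in periotic tissue than in embryo-minus-otic tissue (limma, q = 2.03e-04 and 0.0060). *Stmn2* was above background on only 2 OV arrays. Over all 5 lists, 33 of 69 probes were lower in OV than in periotic tissue and 4 were higher, against 5.15% and 5.07% of all probes. Between the non-otic tissues, 25 were higher in periotic tissue and 2 were lower, against 2.86% and 2.95% of all probes.

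Mean levels of these lists stood in the order of the 7 measured probes, although 8 of 14 progenitor probes and 5 of 12 neuron probes were not called between the non-otic tissues. The mean log2 intensity of the 14 neural progenitor probes was 7.81 to 7.99 on the periotic arrays, 7.14 to 7.33 on the embryo-minus-otic arrays and 6.49 to 6.51 on the OV arrays. For the 12 early neuron probes it was 7.30 to 7.63, 6.81 to 6.97 and 6.17 to 6.46 in the same order. The part that the share of neural tissue had in the differences of *Olig3*, *Dbx1*, *Nkx6-1*, *Nkx2-2*, *Rfx4* and *Fez1* was not tested.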

How the data were processed

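RNA of 9 pools from 3 tissues was hybridized by the authors to MouseRef-8 v2.0 beadchips. The authors deposited GenomeStudio's average signal per probe and array, an intensity with no normalization between arrays, and a detection p-value. By the paper's description a beadchip takes fewer samples than these 9 pools, so the arrays needed more than a single slide. The labels do not name which arrays shared a slide, and slide effects were not analysed here.

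Groups were taken from the tissue in the labels. The signal was converted to log2 and quantile normalized, and limma 3.58.1 in R 4.3.3 fitted 1 mean per tissue to all 25697 probes, with Benjamini-Hochberg adjustment over all of them (the adjusted p, or q). Normalization and fit were tested on simulated data with independent noise and balanced shifts of some probes on the periotic arrays. No background floor or shared replicate effect was simulated, so the test does not cover these. Where no array of the lower tissue was above background (detection p under 0.01), a fold is the higher tissue's mean over, per array, the larger of the probe's value and the lowest value above background, written "at least".

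The genes and lists (dorsal, intermediate, ventral, neural progenitor, early neuron, somite and muscle, eye, pancreas, neural crest, otic) were chosen with earlier results of these data known. All probes of the 10 genes were named, with up to 3 called probes of largest fold per neural list, comparison and direction, and the 3 genes of most similar profile. *Nes* in OV against periotic tissue and *Insm1* in OV against embryo-minus-otic tissue were picked after their values were seen. The same holds for *Shh*, *Lhx4*, *Isl1*, *Sox1*, *Sox2*, *Sox3*, *Neurog2*, *Pou3f2*, *Pou3f3* and *Fabp7* between the non-otic tissues. The number of arrays limits the precision. The other settings tried were neqc (offset 16), median or no normalization, a filter on dim probes, fits of the compared groups, a replicate block, an intensity trend, array weights, each array left out, and thresholds of 0.01 for the adjusted p and 0.05 for detection.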

Additional observations from a re-analysis of the deposited data

How the results depend on the processing

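The calls of *Olig3*, *Dbx1*, *Nkx6-1*, the first *Nkx2-2* probe, the brightest *Rfx4* probe and both *Fez1* probes kept their direction and side of the threshold in all 3 comparisons in all 17 alternative fits. With each array left out in turn, 7 to 10 of the 14 probes were called lower in OV than in periotic tissue (9 with all arrays), 7 lower in OV than in embryo-minus-otic tissue and 7 higher in periotic tissue than in that group. Over the 5 lists of other neural genes the ranges were 31 to 34 (lower in OV) and 4 (higher) against periotic tissue, 19 to 24 and 4 to 6 against embryo-minus-otic tissue, and 22 to 26 (higher in periotic tissue) and 2 between the non-otic tissues. Without normalization, 3 of the list probes rather than 5 were higher in OV than in embryo-minus-otic tissue, and with median normalization 1 rather than 2 was lower in periotic tissue than in that group. The cause was not tested. Dim probes limited the rest. *Pax3* lost its call against OV with median normalization, without normalization and under the replicate block, and the second *Nkx2-2* probe lost its call with neqc, median or no normalization.

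Replicate numbers are shared between the groups, but the labels tie them to no litter, and the deviations of same-numbered arrays correlated from 0.0108 to 0.234, not over 0.1 for every pair. Those of differently numbered arrays from different tissues correlated from -0.192 to 0.0637. The replicate block left the counts of the 14 probes at 9, 7 and 7 and moved the list counts to 34 and 4, 25 and 6, and 30 and 2. Not every array correlated best with its own number.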
